A study of Mus musculus with 3 samples.

Results

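The genes described here are 10 mouse genes of the response to endoplasmic reticulum (ER) stress, namely Eif2ak3, Ern1, Atf6, Atf4, Ddit3, Trib3, Xbp1, Hspa5, Wfs1 and Txnip, out of 22350 protein-coding genes annotated on chromosomes 1 to 19 and X. They were listed by name as genes of this response, not by a threshold on a measured value. For each gene, every H3K4me1 enriched region that overlapped the gene or came within 20 kb of any of its transcriptional start sites (TSS) was taken, which gave 59 of the 65709 regions of the data set. The regions come from 1 library of islets, the endocrine cell clusters of the pancreas, isolated from CD1 mice aged 8 to 12 weeks by the labels and cultured in RPMI for 4 days with IFNγ (1.6 ng/ml), Il-1β (0.25 ng/ml) and TNFα (0.16 ng/ml). The methods of the study use the name ICR for the mice and give a narrower range of ages. DNA from separate chromatin immunoprecipitation (ChIP) experiments with an anti-H3K4me1 antibody was pooled before sequencing, so there is no replicate, and no difference below has an error between libraries. Untreated islets are not analysed here, and a region below is one present after cytokine exposure, not one gained or lost.

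H3K4me1, the monomethylation of lysine 4 of histone 3, marks enhancers and the flanks of promoters in an active or poised state, and at many active CpG-rich promoters it is depleted over the TSS itself, where trimethylation takes its place. The ER folds secreted proteins, and in β-cells most of that load is proinsulin. When unfolded protein accumulates, 3 sensors in the ER membrane start the unfolded protein response: PERK (Eif2ak3) slows translation, IRE1α (Ern1) splices the mRNA of the transcription factor Xbp1, and ATF6 (Atf6) is cut to release a transcription factor. Prolonged signaling through PERK raises ATF4 and CHOP (Ddit3), which is known as a route to β-cell death.

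The list of regions holds positions only. Islet cells are mixed in this library, so a region carried by a few cells and one carried by all cannot be told apart. Of 10 islet marker genes, 9 had at least 1 region and 2 had a TSS inside a region (Ins2 and Slc30a8), while Gcg, the glucagon gene of α-cells, had none. At least 1 region was also found at 2 of 4 leukocyte genes, 2 of 3 endothelial genes, 3 of 3 acinar and duct genes and 3 of 4 genes of other tissues, where Alb of hepatocytes had none, and at 76.4% of all protein-coding genes. A TSS was inside a region at 1 of 4 leukocyte, 2 of 3 endothelial, 1 of 3 acinar and duct and 1 of 4 other tissue genes, so these markers do not set islet genes apart. The part of other cells in the results below was not tested.

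All 10 ER stress genes had at least 1 region, as did 76.4% of the protein-coding genes. In cytokine treated islets, 6 of the 10 had a TSS inside an H3K4me1 enriched region (Ddit3, Trib3, Txnip, Wfs1, Hspa5 and Eif2ak3), against 39.1% of protein-coding genes (95% exact binomial interval 38.5% to 39.8%, counting error only). Atf4 and Ern1 had no TSS covered but a region edge within 2 kb on each side of a TSS, a pattern called flanked here, and 8.16% of protein-coding genes were flanked in this way. Atf6 and Xbp1 had an edge within 2 kb on the downstream side alone, and 14.7% of protein-coding genes had one on a single side. None of the 10 lay outside these classes, whereas 38.0% of protein-coding genes did. A gene takes the best state of its TSS, and the median number of annotated TSS was 4 at the 10 genes and 2 over all protein-coding genes. The part of this in these counts and in the numbers of regions below was not tested. For Hspa5 and Eif2ak3 the covered TSS were internal starts of transcripts annotated as non-coding, and with the most upstream annotated TSS alone, the first TSS, both were flanked. By the first TSS, 4 genes were covered (31.1% of protein-coding genes), 4 were flanked (9.90%), Atf6 had an edge on one side (17.7%), and Xbp1 on neither (41.2%). The nearest downstream edge was 1966 bp from the first TSS at Ern1, just inside the limit of 2 kb, and 2139 bp at Xbp1, just outside it.

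**Figure D1:**
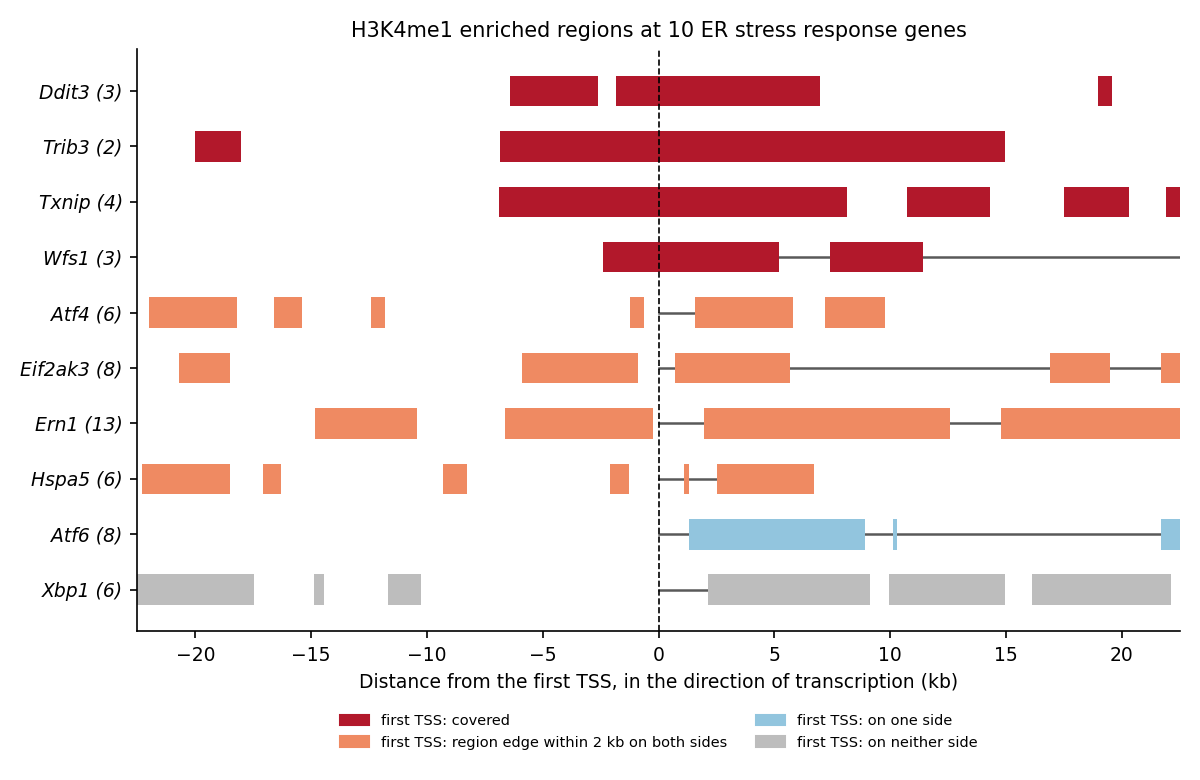
H3K4me1 enriched regions (bars) of each ER stress gene by distance from its first TSS in kb, in the direction of transcription, with the gene as a thin line, its number of regions in brackets and regions beyond the axis not drawn. The first TSS lies inside a region at Ddit3, Trib3, Txnip and Wfs1, and in a gap at the other 6 genes, all of which have a region starting 2139 bp downstream or nearer.

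The 59 regions had a median width of 2800 bp and a range from 200 to 21800 bp. The regions that the same rule gives to all protein-coding genes had a median of 1400 bp. Of the 59, 33 overlapped the gene itself and 26 had their midpoint closest to a TSS of the gene, while the others lay nearer to the start of another annotated gene. The median number was 6 regions per gene, with a range from 2 (Trib3) to 13 (Ern1), against a median of 2 over all protein-coding genes. The size of this difference depends on the rule. The medians were 2.5 and 2 within 10 kb, and 8.5 and 5 within 50 kb. They were 2 and 1 when a region counted for a single gene, that of its closest TSS (at most 100 kb away). Longer genes hold more regions: the median was 5 for protein-coding genes of 50 kb or more and 1 for those under 10 kb. Among the ER stress genes, 3 were longer than 50 kb, namely Atf6 (163.3 kb, 8 regions), Ern1 (93.2 kb, 13 regions) and Eif2ak3 (60.7 kb, 8 regions). Of those under 10 kb, Atf4, Xbp1 and Hspa5 had 6 regions each, Txnip had 4, Ddit3 had 3 and Trib3 had 2.

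The sensors differed in the upstream side of their promoters. Eif2ak3, whose product PERK phosphorylates eIF2α, is on the plus strand of chromosome 6 (mm9, 70794509 to 70855239). Its first TSS fell in a gap of 1600 bp between a region ending 909 bp upstream and an intronic region starting 692 bp downstream, each 5000 bp wide. Of its other regions, 4 lay in the gene, and the one from 70827801 to 70831000 covered the internal start of a retained-intron transcript. Ern1, the kinase and endoribonuclease IRE1α, is on the minus strand of chromosome 11 (106255964 to 106349166). A region ended 235 bp upstream of its first TSS and the next began 1966 bp downstream, leaving a gap of 2200 bp. Its 13 regions added up to 62.4 kb and covered 50% of the gene. Regions held 66.6% of the bases within 20 kb of its first TSS, above 99.7% of protein-coding genes, where the median was 7.50%.

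Atf6, the transcription factor that is released from the membrane by cleavage, is on the minus strand of chromosome 1 (172634588 to 172797902). It had no region upstream of its single TSS within 20 kb, and the nearest one on that side was 33499 bp away. All 8 of its regions lay inside the gene. The widest, of 7600 bp, began 1302 bp downstream of the TSS in an intron. The other 7 were 200 to 2800 bp wide and lay 10.1 to 136.5 kb downstream, of which 1 touched coding sequence and the rest were intronic. Regions covered 10.2% of Atf6, the lowest share among the 10 genes.

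Of the PERK targets, Ddit3 and Trib3 had a region over the TSS and Atf4 did not. Atf4, the transcription factor whose mRNA is translated when eIF2α is phosphorylated, is on the plus strand of chromosome 15 (80085614 to 80087970). Its first TSS was in a gap of 2200 bp, with a region of 600 bp ending 614 bp upstream and one of 4200 bp starting 1587 bp downstream, over the 3′ part of the coding sequence. The narrow upstream region is what made Atf4 flanked. Ddit3, the gene of CHOP, is on the plus strand of chromosome 10 (126727830 to 126733344). A region of 8800 bp, from 126726001 to 126734800, contained the whole gene and its 3 annotated TSS, and also covered start sites of Mbd6, Mars and the non-coding RP24-341K21.6, so it cannot be assigned to Ddit3 alone. Trib3, a pseudokinase gene induced by ATF4 and CHOP, is on the minus strand of chromosome 2 (152163158 to 152169768). It lay whole inside a region of 21800 bp, from 152154801 to 152176600, the widest at any of the 10 genes. Among the 8749 protein-coding genes with a TSS covered, the median width of that region was 2600 bp, and the one over Trib3 was wider than 99.1% of them. It also covered start sites of Rbck1 and Gm14164.

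Sequence upstream of the TSS was searched for elements bound in the ER stress response, in the window from 250 bases before to 50 after each annotated TSS, on both strands. A C/EBP-ATF composite element, the kind through which ATF4 and CHOP act, was searched as TGATG and AA with 1 base between them and found in 7.75% of protein-coding genes. At Trib3 it lay at positions -14 to -7 from the first TSS, inside the wide region. At Ddit3 none lay in this window, and with 1000 bases before the TSS, where 22.8% of protein-coding genes have a match, 1 lay at positions -282 to -275 from the first TSS, inside the region of 8800 bp. Hspa5 had a match at positions -241 to -234 from an internal non-coding TSS, inside its region of 4200 bp. The 300 bases before the first coding TSS of Ddit3 (chr10:126727530-126727829, plus strand) and Trib3 (chr2:152169769-152170068, minus strand) are shown 5′ to 3′ on the strand of the gene, because these are promoters of CHOP and its target that lie inside H3K4me1 enriched regions. Capitals mark the match, which is on the opposite strand in both.
Ddit3: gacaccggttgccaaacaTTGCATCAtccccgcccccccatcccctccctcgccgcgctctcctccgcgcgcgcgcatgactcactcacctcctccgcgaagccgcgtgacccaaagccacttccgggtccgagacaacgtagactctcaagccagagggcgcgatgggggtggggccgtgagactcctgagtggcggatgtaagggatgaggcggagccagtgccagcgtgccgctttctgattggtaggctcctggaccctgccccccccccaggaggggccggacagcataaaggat
Trib3: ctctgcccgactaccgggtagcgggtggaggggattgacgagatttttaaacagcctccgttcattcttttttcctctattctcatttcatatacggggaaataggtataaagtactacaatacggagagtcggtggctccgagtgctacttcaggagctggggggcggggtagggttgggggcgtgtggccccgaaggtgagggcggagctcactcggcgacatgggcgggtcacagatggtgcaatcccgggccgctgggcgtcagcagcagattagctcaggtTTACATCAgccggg

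Xbp1 and Hspa5, at the output of the IRE1 and ATF6 arms, had gaps over their promoters. Xbp1, the transcription factor made active by splicing, is on the plus strand of chromosome 11 (5420662 to 5425896) and has 6 annotated TSS. An uncovered stretch of 12400 bp held all 6, and the region that ended it, from 5422801 to 5429800, started inside the gene and ran past its 3′ end. None of the bases within 2 kb of its first TSS was in a region, while within 20 kb the share was 50.5%, above 98.0% of protein-coding genes. Regions of 5000 and 6000 bp followed downstream, in or over the neighbouring gene Ccdc117. Hspa5, the gene of the chaperone BiP, is on the plus strand of chromosome 2 (34627490 to 34632051). Its first TSS was in a gap of 2400 bp, between a region of 800 bp that ended 1290 bp upstream and a region of 200 bp, the smallest the grid allows, starting 1111 bp downstream. The region of 4200 bp from 34630001 to 34634200 then covered the 3′ part of the gene. It started 2511 bp downstream, beyond the limit of 2 kb, so the region of 200 bp is what made the first TSS flanked. The midpoint of the region of 800 bp upstream was closest to a TSS of Gapvd1.

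The ER stress response element (ERSE), bound by ATF6 together with NF-Y, was searched as CCAAT and CCACG with 9 bases between them. It was found in 0.152% of protein-coding genes, 34 in number, and 2 of these were Hspa5 and Xbp1. At Hspa5 it lay at positions -67 to -49 from the first coding TSS, from 34627545 to 34627563, in the gap between both flanking regions. At Xbp1 it lay at positions -61 to -43 from the coding TSS at 5420970, with its midpoint 1883 bp before the next region. Both matches were therefore outside H3K4me1 enriched regions, like the TSS they lie next to. The composite matches at Trib3 and Ddit3 lay inside, like their TSS, and so did the one near an internal TSS of Hspa5. So close to a TSS, the place of a match largely follows the state of that TSS and is no separate result. No match was found at the 10 genes for ERSE-II (ATTGG and CCACG with 1 base between them, 0.0850% of protein-coding genes), the unfolded protein response element (TGACG then TGG, 1.38%) or the cyclic AMP response element (TGACG then TCA, 3.09%). ERSE and ERSE-II share CCACG, the last pair share TGACG, and a missing match says only that the exact letters are not in the window. The 300 bases before the first coding TSS of Hspa5 (chr2:34627312-34627611, plus strand) and the 19 bases of the match at Xbp1 (chr11:5420909-5420927, plus strand) are shown 5′ to 3′, as targets of the ATF6 arm whose element lies in an H3K4me1 gap. Capitals mark the ERSE in Hspa5, and the run from Xbp1 is the ERSE alone. The sequence of Hspa5 includes an exon of a non-coding Hspa5 transcript.
Hspa5: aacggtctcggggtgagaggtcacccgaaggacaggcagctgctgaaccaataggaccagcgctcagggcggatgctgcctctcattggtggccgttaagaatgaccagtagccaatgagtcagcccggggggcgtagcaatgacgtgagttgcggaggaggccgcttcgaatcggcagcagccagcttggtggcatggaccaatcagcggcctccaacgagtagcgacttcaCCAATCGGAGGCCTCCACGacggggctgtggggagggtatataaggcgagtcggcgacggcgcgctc
Xbp1: ccaatcgcggacggccacg

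Txnip and Wfs1, which link ER stress to β-cell failure, both had a TSS inside a wide region. Txnip, the thioredoxin-interacting protein that rises in β-cells with glucose, is on the plus strand of chromosome 3 (96361880 to 96365806). A region of 15000 bp, from 96355001 to 96370000, contained the whole gene and all 5 annotated TSS, and was wider than 97.5% of the regions over a TSS. It also covered a TSS of the lincRNA Gm15441, which is transcribed from the opposite strand. The other 3 regions lay downstream, and the last of them, near Polr3gl, began 21.9 kb from the first TSS and was counted only because it came within 20 kb of the most downstream TSS. Wfs1, an ER membrane protein mutated in Wolfram syndrome, is on the minus strand of chromosome 5 (37357343 to 37380221). A region of 7600 bp, from 37375001 to 37382600, covered 2 of its 3 TSS. It had 3 regions, and no other annotated gene overlapped any of them. All bases within 2 kb of the first TSS were in a region at Txnip, Wfs1 and Trib3, and 95.7% at Ddit3, whereas at the other 6 genes the share was between 0% (Xbp1) and 60.0% (Eif2ak3), with a median of 16.3% over all protein-coding genes.

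The carbohydrate response element, through which ChREBP raises Txnip, was searched as a pair of CACG, 1 base and G with 5 bases between the copies and found in 0.125% of protein-coding genes. Txnip was the only one of the 10 with a match, at positions -85 to -69 from the first TSS, from 96361795 to 96361811 and inside the region of 15000 bp. The 300 bases before the first TSS (chr3:96361580-96361879, plus strand) are shown 5′ to 3′ with this match in capitals, because no other of the 10 genes had one. They overlap exons of Gm15441 on the other strand.
Txnip: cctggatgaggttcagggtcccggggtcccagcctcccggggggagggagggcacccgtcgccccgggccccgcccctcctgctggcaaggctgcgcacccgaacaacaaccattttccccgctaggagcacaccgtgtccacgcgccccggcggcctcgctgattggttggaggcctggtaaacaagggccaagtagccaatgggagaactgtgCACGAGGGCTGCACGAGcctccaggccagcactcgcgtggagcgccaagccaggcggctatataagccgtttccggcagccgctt

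**Figure D2:**
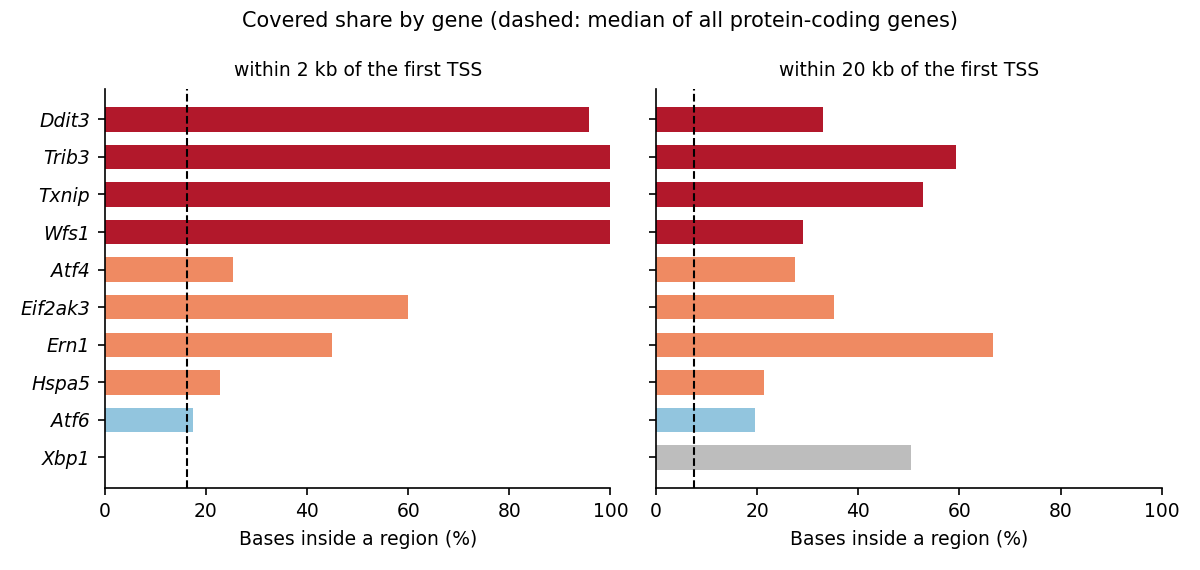
Share of bases inside an H3K4me1 enriched region within 2 kb (left) and 20 kb (right) of the first TSS of each gene, in percent, coloured by the state of the first TSS as in the map of regions (red for covered, orange for edges on both sides within 2 kb, blue for one side, grey for neither). Xbp1 has 0% within 2 kb but 50.5% within 20 kb, and all 10 genes lie above the median of 7.50% within 20 kb.

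Regions wider than 10 kb were present at 3 of the 10 genes and at 11 of a list of 52 other genes described below. They were also present at 6.94% of protein-coding genes and at 12.2% of those of 50 kb or more. At the 10 genes these regions numbered 5, namely 1 each at Trib3 and Txnip and 3 in introns and coding sequence of Ern1 (10800, 11400 and 10600 bp). This was 8.47% of the 59 regions, and 2.48% of the regions that the rule gives to all protein-coding genes. The count for the 10 genes was made after the widths had been seen.

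Downstream of the start all 10 genes were covered, although 6 of their first TSS were not. At the first TSS itself 4 of 10 were covered, 1000 bp downstream 5 were (32.5% of protein-coding genes) and 2000 bp downstream 8 were (27.5%), and from 2600 to 5200 bp downstream every one of the 10 had a region at each step of 200 bp. At 2600 bp downstream, 22.9% of protein-coding genes had one. This distance was chosen after the profile had been seen. At Atf4, which is 2.4 kb long, the base lies just past the end of the gene. Txnip (3.9 kb) and Hspa5 (4.6 kb) also end within the stretch up to 5200 bp. The region there overlaps Rps19bp1 at Atf4 and Rabepk at Hspa5, so it cannot be assigned to the ER stress gene alone. Upstream, the highest count was 7 of 10, from -1800 to -1000 bp, where the share of protein-coding genes was 13.4% at the first of these positions and 20.9% at the last.

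**Figure D3:**
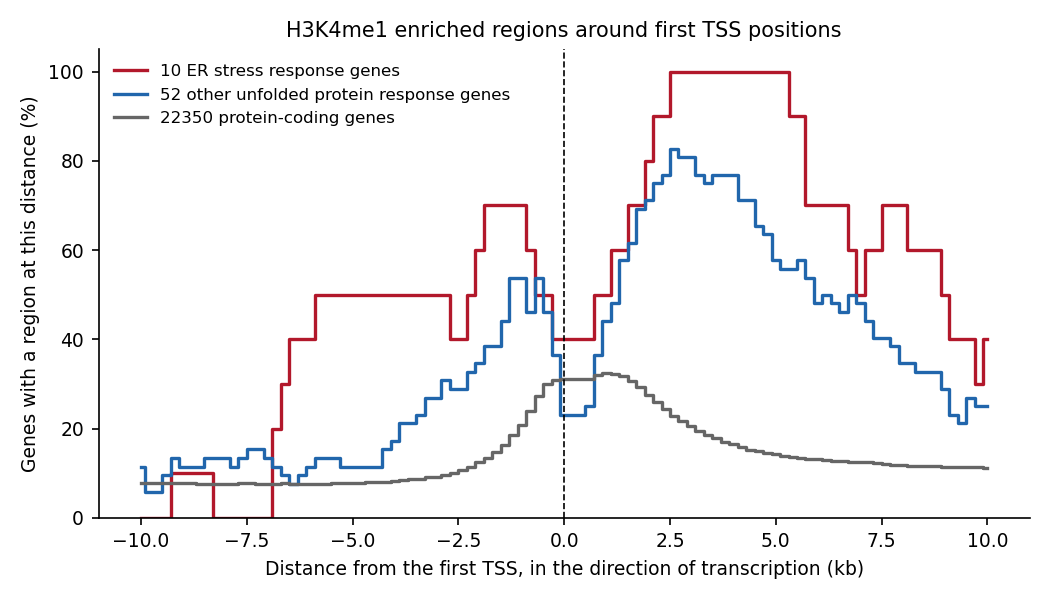
Percent of genes with an H3K4me1 enriched region at each distance from the first TSS (kb, steps of 200 bp, downstream to the right) for the 10 ER stress genes, 52 other unfolded protein response genes and all protein-coding genes. The 10 genes reach 100% from 2.6 kb downstream and fall to 40% at the TSS, and the 52 genes reach 82.7% downstream and 23.1% at the TSS.

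A list of 52 other genes, called other unfolded protein response genes here, was counted by the same rules. The name is loose, because the list takes in 6 redox and thioredoxin partners, among them Mlxipl and Nlrp3. All 52 had at least 1 region (76.4% of protein-coding genes) and none was without a covered TSS or an edge within 2 kb. A TSS was covered in 21 of the 52, a share near the 39.1% of protein-coding genes. Another 14 were flanked (8.16% of protein-coding genes), and 17 had an edge on one side (14.7%). By the first TSS, 12 were covered and 18 flanked, against 31.1% and 9.90% of protein-coding genes, while 22 had an edge on one side and 0 on neither, against 17.7% and 41.2%. At 2600 bp downstream of the first TSS, 43 of the 52 had a region. The median number was 4 regions per gene, against 6 at the 10 ER stress genes, and the order depends on the rule. The medians were 3 against 2.5 within 10 kb, 7 against 8.5 within 50 kb and 2 against 2 by the closest TSS.

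By arm, a TSS was covered in 6 of 14 genes downstream of PERK, 4 of 10 around IRE1 and XBP1, 6 of 14 of the ATF6 arm and ER chaperones, 3 of 8 of ER-associated degradation and 2 of 6 redox and thioredoxin partners. Among the genes downstream of PERK, the flanked ones were Eif2s1, Atf5, Chac1 and Vldlr, and those with an edge on one side were Ppp1r15b, Sesn2, Ddit4 and Cebpb, of which Ddit4 and Cebpb had the most regions of the arm, 6 each. Around IRE1 and XBP1, Dnajc3, Edem1 and Sec61b were flanked, Ern2, Dnajb9 and Bfar had one side, and Map3k5, the kinase ASK1, had the most regions, 18. In the ATF6 arm, P4hb, which had the most with 8, and Creld2 were flanked, and Mbtps2, Canx, Pdia3, Pdia4, Sdf2l1 and Dnajb11 had one side. In ER-associated degradation, Syvn1, Sel1l, Derl1 and Derl2 were flanked and Os9 had one side, with 6 regions each at Derl2 and Edem2. Of the redox and thioredoxin partners, Txn1 was flanked, Ero1lb, Mlxipl and Nlrp3 had one side, and Mlxipl, the gene of ChREBP, had the most regions with 5.

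**Figure D4:**
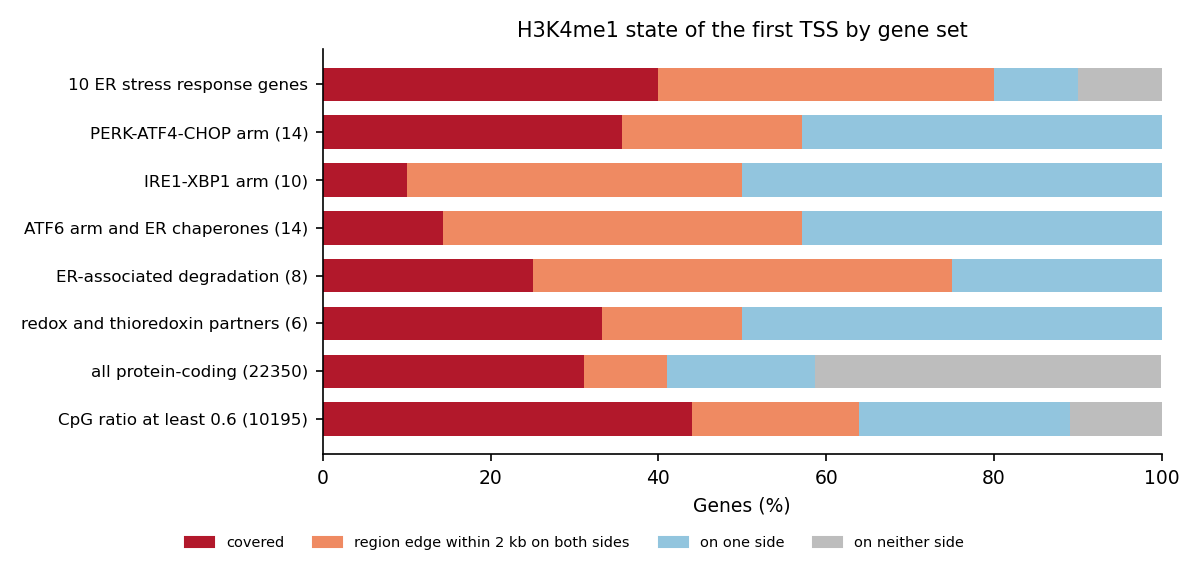
Percent of genes by the H3K4me1 state of the first TSS for the 10 ER stress genes, the other unfolded protein response genes by arm (number of genes in brackets), all protein-coding genes and those with a CpG ratio of at least 0.6. Only the 10 ER stress genes, through Xbp1, and the last 2 sets hold genes with no edge within 2 kb of the first TSS.

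The 10 genes had CpG-rich starts, as did most of the 52 others. The ratio of observed to expected CpG within 500 bases of the first TSS ranged from 0.63 (Ddit3) to 0.98 (Eif2ak3). Its median was 0.78 at the 10 genes, 0.79 at the 52 others and 0.55 over all protein-coding genes. A ratio of at least 0.6 was found at all 10 and at 10195 of the 22350 protein-coding genes. The 4 covered genes had ratios of 0.63 to 0.71. The other 6, which pool flanked, one side and neither, had ratios of 0.76 to 0.98, so these small groups did not overlap. Over all protein-coding genes, the median ratio was 0.68 for covered, 0.82 for flanked, 0.71 for one side and 0.21 for neither. There the states did overlap, with quartiles of 0.53 and 0.80 for covered, 0.72 and 0.91 for flanked and 0.47 and 0.83 for one side. In the other 52 genes the ranges overlapped too, with 0.22 to 1.0 (median 0.71) for covered, 0.64 to 0.97 (median 0.87) for flanked and 0.17 to 1.04 (median 0.79) for one side. Among the 10195 protein-coding genes with a ratio of at least 0.6, 44.0% were covered at the first TSS, 19.9% flanked and 10.9% without an edge within 2 kb, and 38.4% had a region 2600 bp downstream. This comparison was added after the data were seen, and the part of CpG content in the pattern of the 10 genes was not tested.

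**Figure D5:**
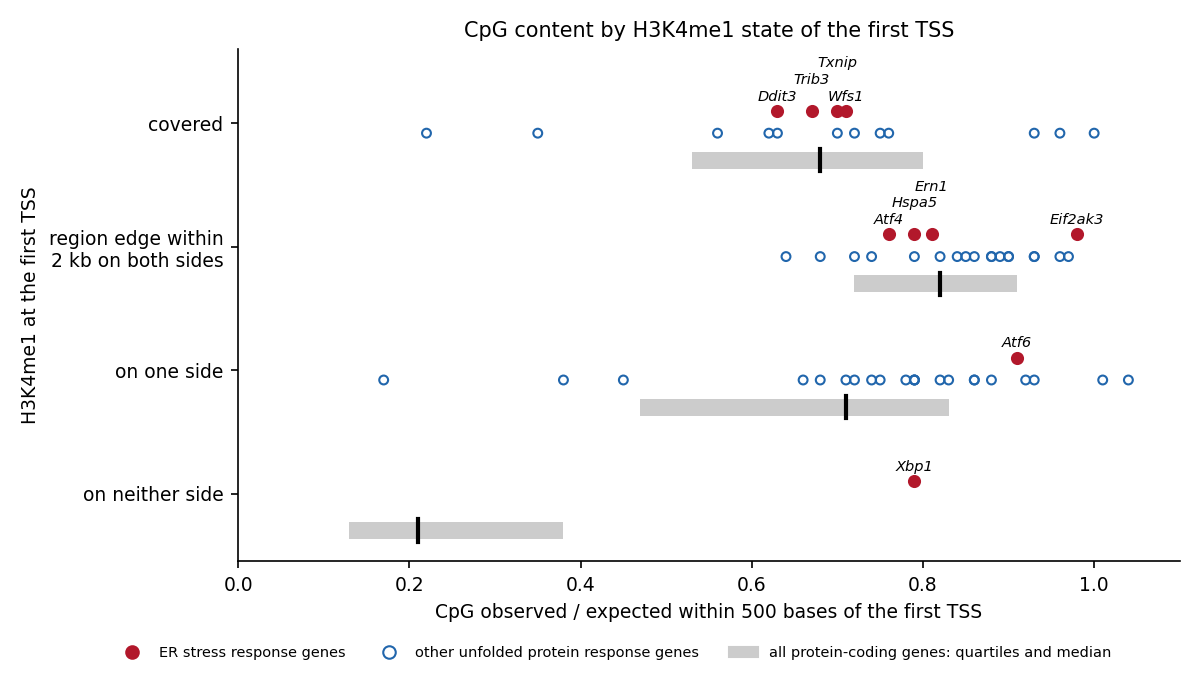
CpG observed over expected within 500 bases of the first TSS, by the H3K4me1 state of that TSS, for the 10 ER stress genes (red, named), 52 other unfolded protein response genes (blue circles) and all protein-coding genes (grey bar from the lower to the upper quartile, black line at the median). The 4 covered ER stress genes lie at 0.63 to 0.71 and the other 6 at 0.76 to 0.98.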

How the data were processed

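H3K4me1 ChIP-seq of 1 library of cytokine treated islets was analysed. Reads were mapped to mm9 with bowtie2 (Bowtie2 2.2.1 by the submitters' processing notes) and enriched regions were found with ChromHMM, whose version and settings are not given in the sources used here. The list of regions the authors deposited, the one file used here, gives the start and end of each region on a grid of 200 bp and no score. The depth is unknown from this list, and a missing region can reflect depth or the calling limit. The methods of the study include a filter that removes loci of very low H3K4me1 enrichment in both libraries, and whether this list precedes or follows it is not given in the sources used here. RNA-seq is not analysed here.

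Starts were counted from 1. The reference genome (NCBIM37) is the same build, with 0 regions running past a chromosome end and 57 on sequences without a length there. GENCODE M1 supplied the genes and their TSS. A TSS was covered if inside a region and flanked if uncovered with an edge within 2 kb on both sides, and a gene took the best state of its TSS. Unless another set is named beside them, shares of genes are over all 22350 protein-coding genes. Motif letters were matched exactly in the mm9 sequence. With 1 library, nothing was tested across samples. All 10 ER stress genes are named, and of 52 other genes those with no TSS covered and, in each arm, the one with the most regions. The 10 genes and the other lists were chosen with earlier results of these data known. On simulated data, 4000 of 4000 TSS states and region numbers and 600 of 600 motifs were recovered. Python 3.11.15, numpy 2.4.6, scipy 1.17.1 and matplotlib 3.10.9 were used.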

Additional observations from a re-analysis of the deposited data

How the results depend on the processing

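Of 53 values under an alternative, 37 stayed within a factor of 1.5 or, for the share of protein-coding genes, within its interval, and 16 moved. Unless an alternative causes it by its own construction, the cause was not tested. With the first TSS alone, or with TSS of protein-coding transcripts alone, flanked ER stress genes numbered 4 rather than 2, as Hspa5 and Eif2ak3 lost their internal starts, and covered ones 4 rather than 6. Other unfolded protein response genes with a TSS covered fell from 21 to 12 with the first TSS. The share of protein-coding genes with a TSS covered was 31.1% with the first TSS, 36.2% with coding TSS, 35.7% without regions under 1000 bp and 40.3% with merged regions. Flanked ER stress genes numbered 1 with regions of at least 1000 bp, which removes the narrow region upstream of Atf4, and 0 with edges within 1 kb. The median number of regions per gene was 3.5 with regions of at least 1000 bp, 2.5 within 10 kb and 2 by the closest TSS, where the medians over protein-coding genes were 2, 2 and 1. The closest TSS gave 26 regions and 149.6 kb in place of 59 and 228.8 kb. Within 50 kb the rule gave 89 regions, with a median of 8.5 per gene against 5 over protein-coding genes. Of the region counts of single genes under an alternative, 62 stayed within a factor of 1.5 and 18 moved. By the closest TSS the count fell at every gene but Wfs1, from 8 to 2 at Atf6, from 6 to 1 at Xbp1 and from 3 to 1 at Ddit3. Within 10 kb it was 2 at Xbp1 and Txnip, 3 at Atf4 and 1 at Trib3, and within 50 kb it was 8 at Ddit3 and Wfs1, 11 at Hspa5 and 7 at Txnip. Hspa5 had 3 regions of at least 1000 bp. Merging regions over gaps of up to 1000 bp put a region over 10 kb at 5 of the 10 genes rather than 3, at 12 rather than 11 of the 52 others and at 8.11% rather than 6.94% of protein-coding genes. A region was present 2600 bp downstream at all 10 genes after leaving out those under 400 or 1000 bp and after merging. A stricter score could not be set. No paired analysis was possible because 1 pooled library was analysed.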
